A study of Mus musculus with 2 samples.

Results

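The genes described here are 10 members of the MHC class II and costimulation apparatus, namely H2-Aa, H2-Ab1, H2-Eb1, Cd74, Ciita, H2-DMa, H2-DMb1, Cd40, Cd80 and Cd86. They were matched by symbol, and all 10 were found among the 35522 features listed in both expression tables. The tables came from neutrophils sorted from mouse bone marrow as CD11b+ cells with high Ly6G and low Ly6C. The PBS-treated neutrophils were kept for 3 days in complete RPMI-1640 with PBS and 10 ng/ml GM-CSF, a cytokine that sustains myeloid cells, and the exosome-treated neutrophils had the same medium, GM-CSF and time but 20 μg/ml tumor exosomes in place of PBS. The exosomes were vesicles prepared by ultracentrifugation from sphere-derived cancer stem cells (SDCSCs) of CT26, a murine colon carcinoma line. The mice of the study were Balb/C, and pooling of animals is not given in the sources used here. Each treatment has 1 library, so no difference below could be set against a spread between cultures or animals and no p-value was computed.

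MHC class II molecules carry peptides from engulfed protein to the surface, where CD4 T cells read them. An alpha chain (H2-Aa) pairs with a beta chain (H2-Ab1) to form I-A, and H2-Eb1 is the beta chain of I-E. The invariant chain, Cd74, guards the groove of a new class II molecule until proteases of the endosome cut it away, and H2-DM (H2-DMa with H2-DMb1) then exchanges its last fragment for antigenic peptide. Ciita is the transactivator that the class II genes need, and it works through a promoter complex built on the X and Y boxes. A T cell also needs a costimulatory signal, which Cd80 and Cd86 give through CD28, while Cd40 receives the signal of CD40 ligand from the T cell. Dendritic cells, B cells and macrophages are the usual carriers of this apparatus, whereas neutrophils are known to acquire class II mainly under cytokines such as GM-CSF and interferon gamma.

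The promoters of 5 members, the H2-DMa gene with both of its RefSeq starts, are shown because the class II genes are known for a shared promoter design, and Cd80, the member with the opposite direction, is set beside them. Each line gives bases -110 to -21 from the start of the gene, on its own strand, from RefSeq (GRCm38.p6). Capitals mark the X box core, searched as ACNGATG, and the Y box, searched as CCAAT, each on either strand, so that ATTGG is a Y box on the opposite strand. The windows lie at chr17:34287844-34287933 (H2-Aa, minus strand), chr17:34305757-34305846 (H2-Eb1, plus strand), chr17:34153081-34153170 (H2-DMb1, plus strand), chr17:34122722-34122811 and chr17:34125408-34125497 (H2-DMa starts 1 and 2, plus strand) and chr16:38458823-38458912 (Cd80, plus strand). RefSeq starts can lie inside the gene spans given below, which come from GENCODE M21, as for H2-DMa, H2-DMb1 and Cd80.
H2-Aa: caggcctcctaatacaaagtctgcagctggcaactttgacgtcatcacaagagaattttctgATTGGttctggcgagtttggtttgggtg
H2-Eb1: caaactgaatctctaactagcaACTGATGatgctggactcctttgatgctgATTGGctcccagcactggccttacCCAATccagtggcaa
H2-DMb1: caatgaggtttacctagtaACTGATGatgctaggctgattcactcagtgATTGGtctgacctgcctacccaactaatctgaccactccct
H2-DMa start 1: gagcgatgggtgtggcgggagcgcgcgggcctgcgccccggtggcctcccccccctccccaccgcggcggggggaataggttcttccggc
H2-DMa start 2: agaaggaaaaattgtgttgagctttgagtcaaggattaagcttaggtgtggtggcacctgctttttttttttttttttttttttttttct
Cd80: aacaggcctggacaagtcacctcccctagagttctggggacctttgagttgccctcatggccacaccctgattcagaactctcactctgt

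Promoter windows were at hand for 5 members, with 2 starts for H2-DMa. Members are counted below per gene, and the shares of all promoters per promoter. Counted per promoter, 3 of 6 member promoters held the X box core, 4 of 6 the Y box letters and 3 of 6 both. In the 250 bases before the start, the X box core was found in H2-DMb1 (-91 to -85), H2-Eb1 (-88 to -82) and H2-Aa (-232 to -226), that is in 3 of 5 members, and 8.31% of the 32851 promoters in the RefSeq table held it. In H2-DMb1 and H2-Eb1 the bases between X core and Y box numbered 23 and 22. The match of H2-Aa lies outside the bases shown and far from its Y box letters at -48 to -44, so that match lacks this spacing. Only the letters ACNGATG were searched, so an X box spelled otherwise, in H2-Aa or another member, would be missed. The Y box letters occurred in 4 of 5 members and in 33.8% of all promoters. Both motifs together, at any spacing, occurred in 3 of 5 members, H2-Aa among them, and in 2.77% of all promoters. The letters of a gamma-activated site, TTCNNNGAA, occurred in 0 of 5 members and in 7.02% of all promoters. A kappa-B like site, GGANTTTCC on either strand, was found in H2-DMb1 alone of the 5 and in 1.07% of all promoters. H2-DMa held no X box core before either start, and Y box letters before start 2 alone (-198 to -194), outside the bases shown. None of the 4 motifs was found before the start of Cd80 in the window searched. A match describes letters and not a bound site. H2-Ab1, Cd74, Ciita, Cd40 and Cd86 had no entry.

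Expression was measured by RNA-seq and given as RPKM (reads per kilobase of transcript, scaled by the mapped reads of the library). Genes reaching 0.25 RPKM in both libraries were kept. A kept gene was called up when the exosome to PBS ratio was at least 2 and down when it was at most 0.5, with no pseudocount. The PBS library held an estimated 65.96 M mapped reads (M, mega) and the exosome library 79.13 M. Of all features, 9698 were kept. Up calls made 31.5% of these and down calls 5.62%, and 26.8% had a ratio below 1. The median log2 ratio of all genes kept was 0.53, a ratio of 1.44, so a gene of equal RPKM in both libraries stood below the middle of the genes. Neutrophil markers were the most abundant marker list in both libraries (summed RPKM 86500 in PBS and 34900 with exosomes), and 10 of 13 were called down and 1 up. Ranked by the higher of both values, the first were S100a9 (43059.08 and 13834.15), S100a8 (32822.83 and 14381.81) and Lcn2 (1625.81 and 4080.94), a bactericidal protein that was the up call. In PBS the third was Retnlg (3021 and 208.33), called down.

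All 10 members were kept. Cd80 was the 1 member called up, 0 were called down, and 9 of 10 had a ratio below 1, beside 26.8% of all genes kept. The members' median log2 ratio was -0.40 beside 0.53 for all genes. The calls depended on the scaling. With the median log2 ratio of all genes removed, 2 members (Cd40 and Cd74) were down, beside 1282 of the 9698 genes kept, and Cd80 stayed up. With a trimmed mean of the ratios removed H2-Ab1 made the third of 3 down, beside 1322 of all genes. With the median of genes of the same RPKM range removed 5 were down, beside 1301 of all genes, and 0 up, Cd80 being at 0.92. These 5 were Cd40 (-1.88), H2-DMa (-1.45), H2-DMb1 (-1.32), Cd86 (-1.18) and Ciita (-1.01). H2-Aa, H2-Ab1, H2-Eb1 and Cd74 were then within 2-fold. Without rescaling, the class II chains, the invariant chain and the peptide exchange genes were lower in exosome-treated neutrophils by less than 2-fold. Ciita was level, Cd40 stood just inside the 2-fold limit, and Cd80 rose 3.03-fold.

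**Figure D1:**
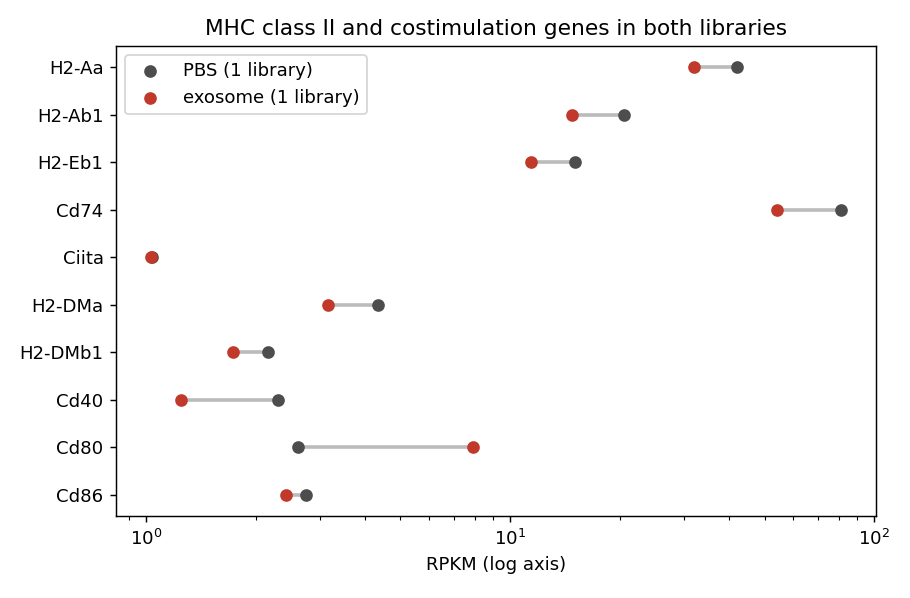
RPKM of the 10 members on a log axis, with 1 dark point for the PBS library, 1 red point for the exosome library and a line joining both. The exosome point lies left of the PBS point for the class II chains, Cd74, H2-DM, Cd40 and Cd86, covers it for Ciita (1.04 and 1.03), and lies right of it for Cd80 (2.62 and 7.93).

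H2-Aa, the I-A alpha chain (build mm10, chromosome 17, 34282744 to 34287823, minus strand), stood at 41.94 RPKM in PBS and 32.08 with exosomes. Its log2 ratio was -0.39, with a 95% counting interval of -0.46 to -0.31 on about 3120 and 2863 reads. This exact Clopper-Pearson interval and all those below cover counting error only. H2-Ab1, the I-A beta chain (chromosome 17, 34257689 to 34269419, plus strand), stood at 20.59 and 14.83 RPKM, a log2 ratio of -0.47 (-0.58 to -0.37). H2-Eb1, the I-E beta chain (chromosome 17, 34305867 to 34316674, plus strand), stood at 15.09 and 11.4 RPKM, a log2 ratio of -0.40 (-0.51 to -0.30).

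The 3 chains were thus lower by 23.5% (H2-Aa), 28% (H2-Ab1) and 24.5% (H2-Eb1), and their log2 ratios lay within 0.0868 of each other. H2-Aa was 2.04 times H2-Ab1 in PBS and 2.16 times with exosomes, so the alpha to beta ratio of I-A was similar in both. Summed, the 3 chains gave 77.6 RPKM in PBS and 58.3 with exosomes. Among the 2989 genes of a mean RPKM of 10 to 50, where the median log2 ratio was 0.31, the share with a lower log2 ratio was 15.4% for H2-Aa, 12.9% for H2-Ab1 and 14.7% for H2-Eb1. The Balb/C mouse carries another MHC haplotype than the C57BL/6J mouse of the reference genome, and the effect of these allelic differences on the levels was not tested.

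Cd74, the invariant chain, had the highest level of the members in both libraries, 81.36 RPKM in PBS and 54.09 with exosomes. It was 33.5% lower, a log2 ratio of -0.59 (-0.64 to -0.54), whose counting interval lies below those of H2-Aa and H2-Eb1 and overlaps that of H2-Ab1. Cd74 was 1.05 times the sum of the 3 chains in PBS and 0.928 times with exosomes. In PBS 93.7% of the genes kept stood below Cd74, and with exosomes 89.2% did.

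H2-DMa, the alpha chain of the peptide exchanger (chromosome 17, 34119541 to 34139101, plus strand), stood at 4.33 and 3.16 RPKM, a log2 ratio of -0.45 (-0.65 to -0.26). Its partner H2-DMb1 (chromosome 17, 34153072 to 34160230, plus strand) stood at 2.16 and 1.73 RPKM, a log2 ratio of -0.32 (-0.61 to -0.03). Their counting intervals overlapped those of the 3 chains, although their levels were several times lower. Together the chains, Cd74 and H2-DM made 6 of 6 members with a lower exosome value, beside 26.8% of all genes kept. Their log2 ratios ran from -0.59 to -0.32, with a median of -0.43. Their summed RPKM was 165 in PBS and 117 with exosomes, a ratio of 0.709.

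Ciita, the transactivator (chromosome 16, 10480059 to 10528418, plus strand), stood at 1.04 RPKM in PBS and 1.03 with exosomes, a log2 ratio of -0.01 (-0.20 to 0.18) on about 412 and 490 reads. It had the lowest RPKM of the members in both libraries, with 20.0% of the genes kept below it in PBS and 9.98% with exosomes. The counting interval of Ciita lies above those of H2-Aa, H2-Ab1, H2-Eb1, Cd74 and H2-DMa and overlaps that of H2-DMb1. Measured against the median of all genes, Ciita was at -0.54 on the log2 scale, and against that of its RPKM range at -1.01. Its direction was not settled, since rescaling both libraries to TPM gave 0.03.

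Among the costimulatory members, Cd80 (chromosome 16, 38455561 to 38496335, plus strand) stood at 2.62 RPKM in PBS and 7.93 with exosomes, a log2 ratio of 1.60 (1.41 to 1.79) on about 294 and 1067 reads. Cd86, the other CD28 ligand (chromosome 16, 36603869 to 36666081, minus strand), stood at 2.75 and 2.43 RPKM, a log2 ratio of -0.18 (-0.37 to 0.01). The pair was near equal in PBS, with Cd80 at 0.953 times Cd86, and at 3.26 times with exosomes. The rise of Cd80 is to be read beside the 31.5% of all genes called up. Of the 1556 genes with a mean RPKM of 5 to 10, whose median log2 ratio was 0.67, 34.6% were called up. In this range 85.4% had a lower log2 ratio than Cd80. The ranges go by the mean of both libraries, so the exosome value of Cd80 helped to place it here. Among genes with a mean RPKM of 1 to 5, where its PBS value lies, the median was 1.0 and 50.2% were up.

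Cd40, the receptor for CD40 ligand (chromosome 2, 165055627 to 165072948, plus strand), stood at 2.3 RPKM in PBS and 1.25 with exosomes. It was 45.7% lower, a log2 ratio of -0.88 (-1.10 to -0.67), and its counting interval spans the 2-fold limit. Among the 2950 genes with a mean RPKM of 1 to 5, whose median log2 ratio was 1.0, 5.46% had a lower log2 ratio than Cd40. The shares for the other members of this range were 10.6% for H2-DMa, 12.9% for H2-DMb1, 15.4% for Cd86 and 18.7% for Ciita.

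**Figure D2:**
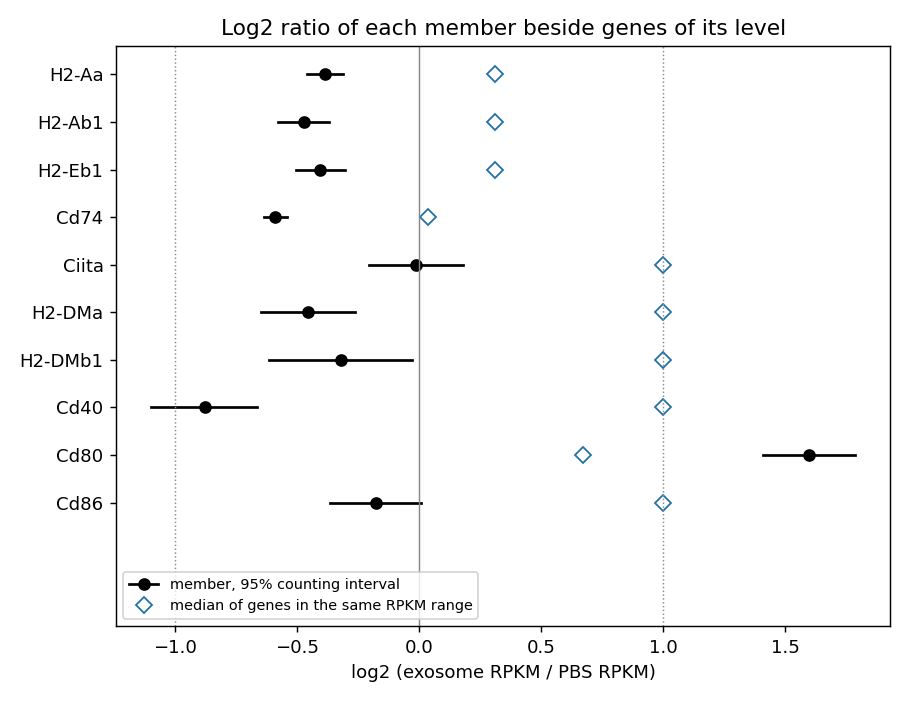
Log2 ratio of exosome to PBS RPKM of each member (black points) with its 95% counting interval (bars), beside the median log2 ratio of all genes kept in the same range of mean RPKM (open diamonds). Dotted lines mark 2-fold. Each point but that of Cd80 lies left of its diamond.

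In PBS the order of the levels per length was Cd74, H2-Aa, H2-Ab1, H2-Eb1, H2-DMa, Cd86, Cd80, Cd40, H2-DMb1 and Ciita. The exact 95% Poisson intervals of Cd86 (2.51 to 3.02 RPKM), Cd80 (2.33 to 2.94), Cd40 (2.09 to 2.52) and H2-DMb1 (1.87 to 2.48) overlapped from each to the next, so the order of these 4 was not settled by the reads. With exosomes Cd80 (7.46 to 8.42) moved above H2-DMa (2.87 to 3.48), and the order went on with Cd86 (2.22 to 2.65), H2-DMb1 (1.49 to 1.99), Cd40 (1.11 to 1.40) and Ciita (0.942 to 1.13). There the intervals of Cd40 and Ciita overlapped. Whether any of these orders would hold in another culture is not known from 1 library.

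**Figure D3:**
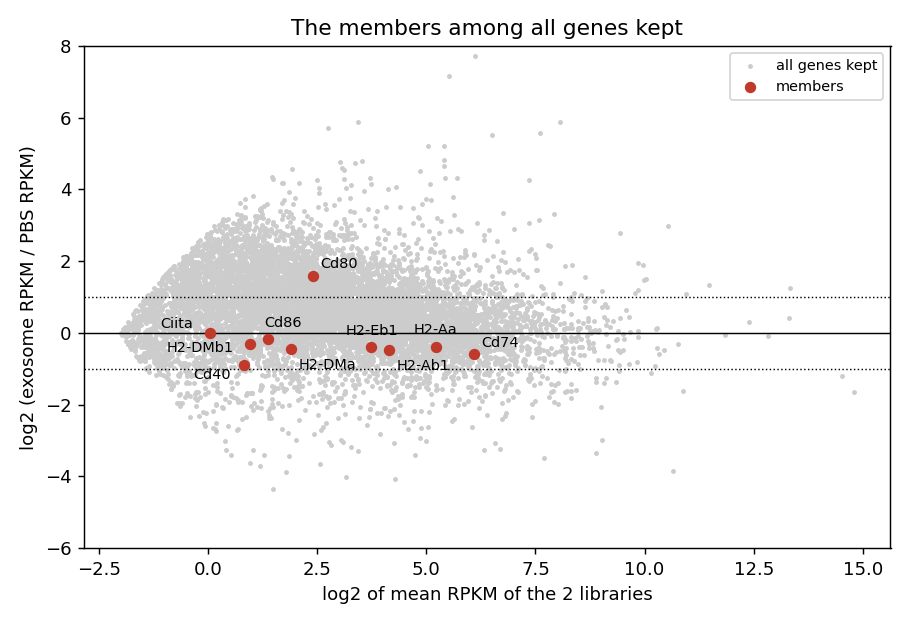
Log2 ratio of exosome to PBS RPKM against log2 of the mean RPKM, with every gene kept in grey and the 10 members in red. Dotted lines mark 2-fold. Of the members, Cd80 lies above the upper line, and the others lie between the lines and at or below 0, from -0.88 (Cd40) to -0.01 (Ciita).

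The genes closest in level to each member were found by distance in log2 RPKM over the 2 libraries, and lay within 0.009 to 0.076 of it. They were Ccndbp1 for H2-Aa, Zfp869 for H2-Ab1, 9030418K01Rik for H2-Eb1, Gclm for Cd74, Stard4 for Ciita, Tns3 for H2-DMa, Ly75 for H2-DMb1, Hist1h2bj for Cd40, Gspt1 for Cd80 and Bank1 for Cd86. With 2 libraries such nearness says only that both RPKM values were alike. Ly75 is an antigen uptake receptor of dendritic cells and Bank1 a B cell scaffold protein. These 2 were picked from the list, which is not a sign of any cell type.

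The other class II genes had ratios like those of the members. H2-Ea (listed as H2-Ea-ps), the alpha chain of I-E, stood at 22.46 and 18.05 RPKM. H2-Ob and H2-Oa, the chains of the modulator of H2-DM known from B cells, stood at 6.17 and 4.35 and at 1.29 and 1.0. H2-DMb2 stood at 8 and 6.08, and H2-Eb2 at 0.38 and 0.37. In all 5 of these genes the exosome value was lower, with 0 called in either direction and a median log2 ratio of -0.37. The shares of all genes kept were 26.8% with a ratio below 1, 31.5% up and 5.62% down. Reads of H2-DMb1 and H2-DMb2, and of H2-Eb1 and H2-Eb2, could be split between near copies, and the study's treatment of reads with several matches is not given in the sources used here.

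The class II genes on chromosome 17 lie between 34092340 and 34344645 together with other genes. In this interval 10 of 10 class II genes kept were lower with exosomes (median log2 ratio -0.39, from -0.50 to -0.04), against 3 of 5 other genes (median -0.07). Of all genes kept, 26.8% had a ratio below 1. The others were the proteasome genes Psmb9 (-0.44) and Psmb8 (0.17), the peptide transporter genes Tap1 (-0.07) and Tap2 (-0.44), and Brd2 (0.02), a chromatin reader.

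B cell markers were at hand in both libraries and moved in the same direction. All 10 markers were kept, none was at 0, and 10 of 10 were lower with exosomes, beside 26.8% of all genes kept. Their log2 ratios ran from -0.79 to -0.19 with a median of -0.64. There were 0 calls, beside 31.5% up and 5.62% down among all genes kept. Cd79a and Cd79b, the signalling chains of the B cell receptor, stood at 38.25 and 24.44 and at 33.59 and 19.42 RPKM. The summed RPKM of the 10 markers was 131 in PBS and 83.2 with exosomes, a ratio of 0.635, beside 0.709 for the 6 class II members. Divided by this sum in the same library, all 6 class II members were higher with exosomes, by 0.07 (Cd74) to 0.34 (H2-DMb1) on the log2 scale. On the same scale Cd40 was at -0.22, Cd86 at 0.48, Ciita at 0.64 and Cd80 at 2.25. These directions rest on the sum, in which Cd79a and Cd79b are the largest. The log2 ratios of Cd22 (-0.19) and Fcer2a (-0.27) lay above those of all 6 class II members. Those of Pax5 (-0.50) and Blk (-0.48) lay above that of Cd74 only, and those of the other markers lay below all 6. The sort for CD11b+ cells with high Ly6G would be expected to leave out most B cells, yet these markers were read in both libraries. The study set a minimum purity for sorted cells, and the share of other cells was not measured here. The part of B cell RNA in the members' levels was not tested, and fewer cells of a type and less RNA per cell cannot be told apart in such bulk samples.

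Markers of the other antigen-presenting cells differed among themselves. Their calls are to be read beside 31.5% up and 5.62% down among all genes kept. Of 17 macrophage and monocyte markers 10 were kept, 7 of them called up and 0 down (median log2 ratio 2.70). The summed RPKM of the 17 went from 312 to 860. Those with the highest value in either library, here the exosome library, were Cd14, a lipopolysaccharide coreceptor (117.77 and 208.76 RPKM), Apoe, a lipid carrier (28.64 and 169.37), and Csf1r, the receptor of M-CSF (58.1 and 152.64). Cd68, a lysosomal protein of macrophages that ranked after Cd14 in PBS, stood at 83.91 and 145.79, within 2-fold. Adgre1, which encodes F4/80 and is listed as Emr1, stood at 20.91 and 151.51. Of 14 conventional dendritic cell markers 6 were kept, with 0 up and 2 down, and the sum went from 15.9 to 9.56. The 3 highest were Itgax, which encodes CD11c (8.98 and 4.19), Ccr7, a homing receptor (2.16 and 1.64), and Clec9a (1.28 and 0.41), while the defining Flt3 (0.14 and 0.05) and Zbtb46 (0.15 and 0.17) were under the RPKM minimum in both libraries. Of the 6 kept, 4 were lower with exosomes, and Fscn1 (0.65 and 0.85) and Ccl22 (0.69 and 0.8) were higher. The part of these cell types in the differences of Cd80, Cd86 and Cd40 was not tested.

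The remaining marker lists were smaller, and their calls are to be read beside the same shares of all genes kept. Plasmacytoid dendritic cell markers held 3 of 5 genes kept, with Bst2 (2.54 and 26.77) and Tcf4 (0.98 and 3.53) up and Ly6d at 11.43 and 7.7, while Siglech, the defining marker, stood at 0.43 and 0.17. Of 10 T cell markers 2 were kept, and Cd3d (56.44 and 7.02) was called down although Cd3e, of the same receptor complex, stood at 0.06 and 0.04. Cd3g stood at 1.19 and 0.11 and Lck at 0.95 and 0.93. Cd28, the receptor of Cd80 and Cd86, was at 0.04 and 0.08, under the RPKM minimum in both libraries. Of 9 eosinophil, basophil and mast cell markers 4 were kept with 0 calls, and of all 9 the highest in either library were Prg2 (5.32 and 2.93), Siglecf (listed as Siglec5, 3.57 and 1.92) and Ccr3 (1.44 and 0.22), the last of which was under the RPKM minimum with exosomes and so could not be called. Of 9 colon carcinoma markers 0 were kept. Krt18 (0.38 and 0.08), Cdh1 (0.14 and 0.11) and Vil1 (0.08 and 0.04) were the highest, and Krt8, Krt20 and Cldn4 were listed at 0 in both libraries.

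**Figure D4:**
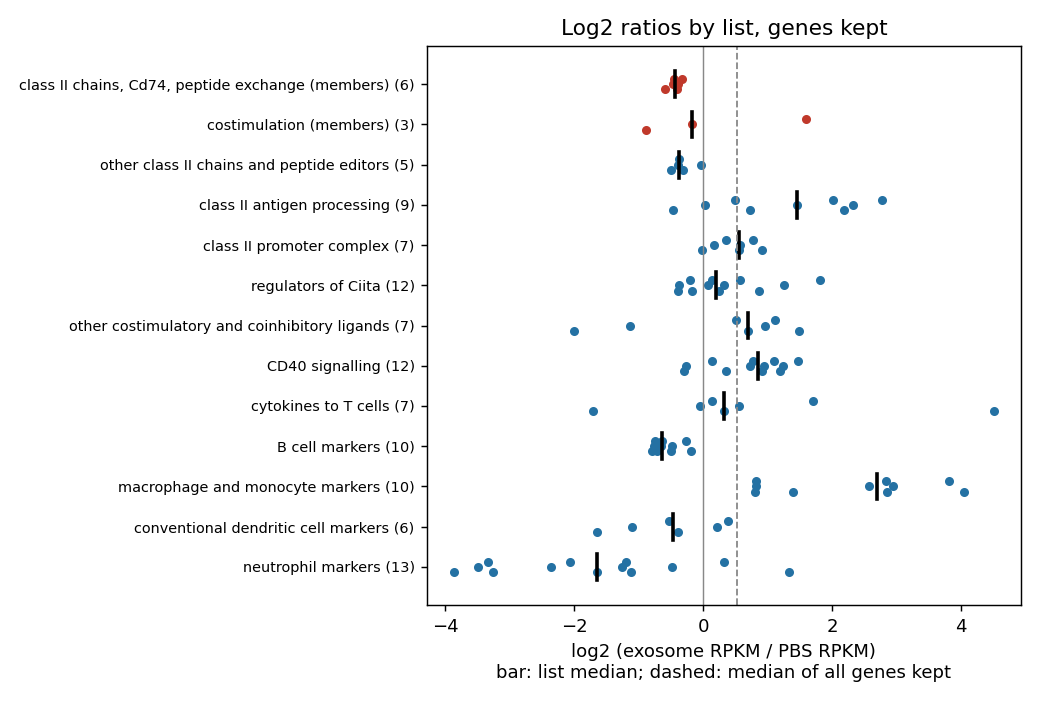
Log2 ratio of exosome to PBS RPKM for every gene kept in each list (number in brackets), with the members in red, list medians as black bars, a solid line at 0 and a dashed line at the median of all genes kept (0.53). The class II members, the other class II genes and the B cell markers lie left of 0, and the macrophage and monocyte markers and most antigen processing genes lie right of it.

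Genes that prepare antigen for class II did not share the direction of the class II chains. Of 9 antigen processing genes kept, 5 were called up and 0 down, with a median log2 ratio of 1.46, beside 31.5% up and 5.62% down among all genes kept. Ctss, the protease that makes the last cut in Cd74, rose 6.84-fold (9.94 and 68.03 RPKM). Ctsb, an endosomal protease, rose 5.02-fold (56.18 and 282.12), Ctsl, which cuts Cd74 in thymic epithelium, 4.52-fold (21.92 and 99.1), Lgmn, an asparaginyl endopeptidase, 4.03-fold (4.74 and 19.1), and Sppl2a, listed as 2010106G01Rik, which clears the N-terminal stub of Cd74, 2.76-fold (14.13 and 38.94). Ifi30, the lysosomal thiol reductase GILT, stood at 28.04 and 28.5. Ctsd was the 1 gene of the list with a lower exosome value, at 1630.73 and 1175.1 RPKM. Macrophages are rich in these proteases, and the sum of the macrophage markers above was higher in the same library. Their part in these rises was not tested.

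The factors upstream of class II transcription gave few calls. In the promoter complex (Rfx5, Rfxap, Rfxank, the NF-Y subunits and Creb1), 0 of 7 genes were called, and the median log2 ratio of 0.55 was near the 0.53 of all genes. Rfx5, which binds the X box, stood at 1.63 and 3.06 RPKM. Among 12 regulators of Ciita, 2 were called up and 0 down, with a median of 0.19. The shares among all genes kept were 31.5% up and 5.62% down. Ifngr1, a chain of the interferon gamma receptor, rose 2.39-fold (47.6 and 113.81), and Prdm1, which encodes the repressor Blimp-1, rose 3.5-fold at a low level (0.28 and 0.98). Irf4 (2.13 and 1.9), Irf8 (5.82 and 5.05) and Spi1, which encodes PU.1 and is listed as Sfpi1 (310.26 and 341.01), stayed within 2-fold. Cd83, which protects class II and CD86 from degradation at the surface, stood at 2.59 and 5.1 RPKM, just under the 2-fold limit at a log2 ratio of 0.98.

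Cd80 was not the only CD28 or B7 family ligand past the limit. Of 15 other costimulatory and coinhibitory ligands and receptors found, 7 were kept, with 2 up, 2 down and a median log2 ratio of 0.70, beside 31.5% up and 5.62% down among all genes kept. With the median log2 ratio of all genes removed, 0 were up and 2 down, beside 1634 up and 1282 down of the 9698 genes kept. With the median of the RPKM range removed, 1 was up and 2 down, beside 1353 and 1301 of all genes. Cd274 (PD-L1), the ligand of PD-1, rose 2.81-fold (9.5 and 26.74 RPKM), near the 3.03-fold of Cd80, with which PD-L1 is known to pair on the same membrane. Pdcd1lg2 (PD-L2), the second PD-1 ligand, rose 2.17-fold at a low level (0.4 and 0.87). Icosl, the ligand of ICOS, fell by 1.14 on the log2 scale (58.47 and 26.6), and Tnfsf14 (LIGHT) fell by 2.0 on that scale (33.85 and 8.46). Vtcn1 and Cd70 were listed at 0 in both libraries.

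Downstream of Cd40, 4 of 12 signalling genes were called up and 0 down, with a median log2 ratio of 0.85, beside up calls in 31.5% of all genes kept. With the median log2 ratio of all genes removed, 0 of the 12 were up, beside 1634 of the 9698 genes kept. With the median of the RPKM range removed, 2 of the 12 were up, beside 1353 of all genes. The 4 called without rescaling were Traf1, an adaptor (3.6 and 9.93 RPKM), Birc3, a ubiquitin ligase (63.07 and 149.27), and Nfkb2 (42.4 and 96.51) and Relb (24.7 and 53.13), the NF-κB subunits of the noncanonical pathway. Cd40 itself was lower, as given above. Among 10 cytokines that act on T cells 7 were kept, with 2 up, 1 down and a median of 0.33. Among all genes kept, 31.5% were up and 5.62% down. Il12a, the p35 subunit shared by IL-12 and IL-35, rose 22.7-fold (2.44 and 55.32), Ebi3, a subunit of IL-27 and IL-35, rose 3.25-fold (54 and 175.61), and Il15 fell by 1.71 on the log2 scale (13.36 and 4.07). Of the partner subunits, Il12b (0.18 and 0.29) was under the RPKM minimum in PBS and Il27 (1.44 and 1.58) stayed within 2-fold.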

How the data were processed

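Total RNA of 2 samples was made into TruSeq mRNA libraries and sequenced. The authors trimmed reads at a Phred score of 20, mapped them in CLC Genomics Workbench v8.0 (build mm10 per the labels) and deposited 1 RPKM value for each feature and sample, rounded to 0.01 above that value. The annotation and the treatment of reads with several matches are not given in the sources used here. Each group holds 1 library, so ratios were described without a test. Mapped reads were estimated from features at 1 read, with GENCODE M21 transcript lengths, and gave 65.96 M (317 of 918 features) and 79.13 M (352 of 1064). Counting intervals (95%, Clopper-Pearson for ratios, Poisson for levels) rest on these estimates. The threshold rule (RPKM of at least 0.25 in both, 2-fold) is that of the study. Genes named were all members, genes of related lists past the limit, a few fixed regulators, the 3 highest markers of each list and the nearest gene of each member. Others, such as Adgre1, Cd68, Retnlg, Fscn1, Ccl22, Flt3, Zbtb46, Siglech, Cd3e, Cd28, Ctsd, Cd83, the remaining class II genes and those of the chromosome 17 interval, were named after their values were seen. Members and lists were chosen with earlier results of these data known. March1, March8 and Traf5, whose feature names are altered or doubled, were left out. The values of 1 marker gene are not reported here. Scripts (python 3.11.15, numpy 2.4.6, pandas 2.3.3, scipy 1.17.1) were tested on simulated data. Alternatives were other scalings, filters, pseudocounts and a 4-fold limit.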

Additional observations from a re-analysis of the deposited data

How the results depend on the processing

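No paired analysis was possible because each group holds 1 library, and for the same reason no replicate could be left out. Of 263 recomputed values, 177 stayed within their limits, 0 called values reversed and 86 moved or crossed a limit. Of the members only Cd80 was called, so it alone could count as reversed. A change of sign within 2-fold was not counted so. All 6 class II members changed sign when divided by the B cell marker sum, H2-Aa going from -0.39 to 0.27. The 177 also include list counts of 0 in both settings and log2 ratios that the 4-fold limit leaves unchanged. With the median log2 ratio of all genes removed, the members' median was -0.92 and 2 members were down, with a trimmed mean removed it was -0.94 with 3 down, and with the median of genes of the same RPKM range removed it was -0.90 with 5 down and 0 up. Cd80 was then at 0.92, and it was at 1.07 with the median of all genes removed. At a ratio of at least 4, 0 members were up. Under TPM 8 of 10 members were lower, Ciita being the exception beside Cd80. Counts over all genes were 1634 up and 1282 down after median centring, 1594 and 1322 after the trimmed mean, 1353 and 1301 by RPKM range, 1958 and 408 at an RPKM of at least 1 in both, 1976 and 400 with a pseudocount of 1, and 826 and 111 at 4-fold. With the median removed, the up calls among CD40 signalling genes and among the other costimulatory ligands went to 0. By RPKM range they went to 2 and 1. The scaling by B cell markers was chosen after seeing the data. Depth left Ciita and Cd86 unresolved in direction, and no depth replaces replicates.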
